A study of Mus musculus with 4 samples.

Results

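The comparison described here sets the Brg1 conditional knockout (cKO) against wild type in cultured mouse cortical neurons that were not depolarized. It rests on the pair of libraries at basal KCl among the 4 libraries of the study, 1 library per group. Genes entered when they reached 1 FPKM (fragments per kilobase of transcript, scaled to the depth of the library) in at least 1 of the 4 libraries, which held for 13248 of 22552 genes. After 459 X-linked and 4 Y-linked genes were set aside, 12785 genes remained. At the edge of that limit, Rxrg was just inside with a highest value of 1.00 FPKM and Mfsd7c just outside with 0.998. Between 1 and 1.1 FPKM there were 142 autosomal genes, and between 0.9 and 1 FPKM there were 127 that stayed out.

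Wild-type cultures are labelled only as such, and which alleles or Cre they carried is not given in the labels. Cultures of the cKO carried BAF53bCre together with Brg1F/F, that is, floxed Brg1 alleles recombined by a Cre that is driven by BAF53b (Actl6b), a gene of post-mitotic neurons. Both genotypes came from the cortex of E16.5 embryos. For depolarization the protocol blocked spontaneous activity with TTX (1 µM, against sodium channels) and APV (100 µM, against NMDA receptors) on day 5 in vitro and added 50 mM KCl for 6 h on day 6. The same blockers are recorded for the basal libraries, although the treatment of the basal cultures is not stated separately. The labels do not give how many embryos or cultures made up a library, and there were no replicates. Hence the spread between cultures is unknown, and "higher" and "lower" describe these libraries alone.

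Brg1, encoded by Smarca4, is one of the alternative ATPases of the BAF (SWI/SNF) chromatin remodelling complex, which moves and evicts nucleosomes at promoters and enhancers. Neurons exchange several BAF subunits as they leave the cell cycle, among them BAF53a (Actl6a) for BAF53b (Actl6b). In the oligodendrocyte lineage Brg1 is known to act with Olig2 when progenitors turn into myelin-forming cells, and a cortical culture can hold such cells, astrocytes, microglia and vascular cells beside its neurons.

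The libraries were alike in depth and close in level over most genes. Depth was approximated at 21200000 fragments for the wild-type and 21600000 for the cKO basal library, and at 21500000 and 23700000 for the KCl libraries, so that 1 FPKM on a transcript of 2 kb stood for 42.5 to 47.4 fragments. Over the 12785 genes the median log2 ratio of cKO to wild type, taken after adding 1 to each value, was 0.01. Sex-linked genes did not match between the genotypes. Xist, the RNA that silences 1 X chromosome in females, read 83.3 (basal) and 78.1 FPKM (KCl) in wild type against 0.141 and 0.287 FPKM in cKO, and the Y-linked Eif2s3y read 0.0518 and 0 FPKM in wild type against 32.9 and 39.0 FPKM in cKO. Genotype and the sex of the embryos therefore cannot be told apart in any result below.

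The deleted gene checked the labels. At basal KCl, Smarca4 had a level of 34.0 FPKM in wild type and of 10.5 FPKM in cKO, and after KCl the levels were 28.5 and 10.4 FPKM. Both cKO libraries were low and both wild-type libraries high, without overlap. The basal ratio was 3.25-fold lower in cKO, with a 95% interval of 3.07 to 3.45 that, like all intervals below, covers counting error only. Smarca2, which encodes Brm, the other ATPase of the complex, had basal levels of 63.6 FPKM (wild type) and 62.4 FPKM (cKO). Of the other BAF genes, Actl6b was at 33.8 and 30.9 FPKM, Actl6a at 8.998 and 8.954 FPKM, and the large DNA-binding subunit Arid1a at 30.5 and 35.4 FPKM. Smarca4 was the only one of 29 described BAF genes past 2-fold, and the list had a median log2 ratio of 0.02. The labels do not name the floxed exons, so how much of the remaining signal comes from recombined transcripts and how much from cells without Cre cannot be told apart.

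Genes near the floxed locus had no common direction. Among the 100 described genes nearest to Smarca4 on chromosome 9, 50 on each side in annotation order, the median log2 ratio was 0.01. None was 2-fold higher, and the only one 2-fold lower was the microRNA gene Mir199a-1. The highest of them was Spc24, a kinetochore gene, at a log2 ratio of 0.79.

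Few genes passed 2-fold at basal KCl. On the log2 scale after adding 1, 116 genes (0.907%) were 2-fold or more higher in cKO and 70 genes (0.548%) were lower, so that higher genes made up 62.4% of the 186 past the limit. Counts past 2-fold below use this scale, while printed folds are plain ratios. When the cKO library was rescaled so that the pan-neuronal genes had a median ratio of 1, the counts were 167 and 61, higher genes made up 73.3%, and the median log2 ratio of all genes was 0.13. Small RNA genes supplied 37 of the higher and 38 of the lower genes although they were only 211 of those described. Of these 75 genes, 50 had a library listed at 0, and only 11 of the 37 and 13 of the 38 had the same sign in the KCl pair. They are not described further.

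Most of the others were named protein-coding genes, and 2 higher and 5 lower genes were unnamed. Of 11441 named protein-coding genes, 77 (0.673%) were higher and 27 (0.236%) lower in cKO at basal KCl. These shares are the background against which the counts of each group are read. Most of the 27 lower genes belonged to 1 lineage: 15 of them (55.6%) were on the lists of oligodendrocyte genes, to which the unnamed gene Gm98 adds 1 more, 2 were astrocyte genes, and Smarca4 and the neuronal gene Nrgn were among the other 10. Of the 77 higher genes, 12 were on the microglia and macrophage list and 14 on the lists of pericyte, smooth muscle, fibroblast and meningeal genes. None of the 77 was on a list of neuronal, oligodendrocyte, astrocyte or cell cycle genes. In bulk RNA, fewer cells of a type and less RNA per cell cannot be told apart.

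**Figure D1:**
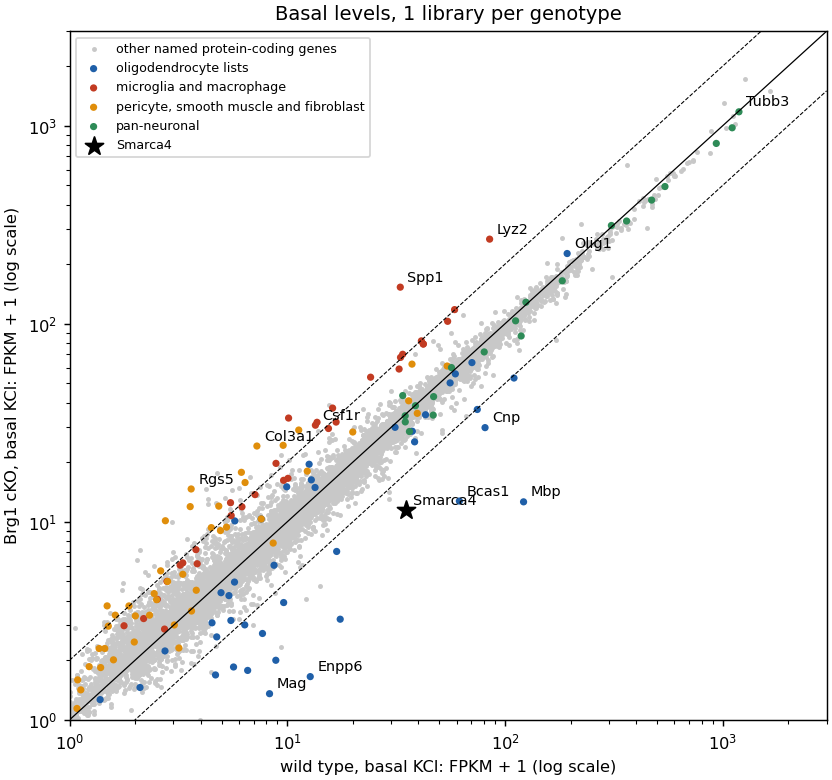
Level of each named protein-coding gene in the wild-type (x axis) and the cKO (y axis) basal library, as FPKM + 1 on log scales; the solid line marks equal levels and the dashed lines 2-fold. Oligodendrocyte genes such as Mbp and Enpp6 lie below the lower dashed line, microglial and pericyte genes such as Spp1 and Rgs5 above the upper one, and neuronal genes such as Tubb3 on the line.

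Spread about the line depended on level. Among named protein-coding genes with a mean of 1 to 2 FPKM the median absolute log2 ratio at basal KCl, after adding 1, was 0.21. Among genes of 30 to 100 FPKM it was 0.07. In the KCl pair the same bins gave 0.21 and 0.12. For basal log2 ratios without 1 added, counting alone gives an SD of about 0.20 and 0.03 in these bins. That SD and the median absolute ratio are unlike measures, so the part of counting in the spread cannot be read from them. Ratios of genes near 1 FPKM are accordingly the least precise.

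Myelin genes gave the lowest ratios of the comparison. Promoter sequences of 4 genes of this lineage are shown because the genes were low together in both cKO libraries; each is the 250 bases before the RefSeq transcription start on GRCm38.p6, read 5′ to 3′ on the gene's strand. Capitals mark matches, on either strand, to ACAAAG or ACAAT, letters bound by SOX-family proteins such as Sox10.
Enpp6 (chr8:46986637-46986886, plus strand): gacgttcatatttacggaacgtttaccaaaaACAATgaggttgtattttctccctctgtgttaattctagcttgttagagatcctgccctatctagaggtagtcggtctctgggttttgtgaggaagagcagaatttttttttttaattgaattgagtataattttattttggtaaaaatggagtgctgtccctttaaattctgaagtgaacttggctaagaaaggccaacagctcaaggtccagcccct
Mag (chr7:30914864-30915113, minus strand): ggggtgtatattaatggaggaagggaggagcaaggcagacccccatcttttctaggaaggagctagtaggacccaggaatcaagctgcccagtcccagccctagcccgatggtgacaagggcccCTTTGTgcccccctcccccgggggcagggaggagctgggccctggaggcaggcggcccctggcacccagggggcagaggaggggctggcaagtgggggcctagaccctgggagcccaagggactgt
Cnp (chr11:100574689-100574938, plus strand): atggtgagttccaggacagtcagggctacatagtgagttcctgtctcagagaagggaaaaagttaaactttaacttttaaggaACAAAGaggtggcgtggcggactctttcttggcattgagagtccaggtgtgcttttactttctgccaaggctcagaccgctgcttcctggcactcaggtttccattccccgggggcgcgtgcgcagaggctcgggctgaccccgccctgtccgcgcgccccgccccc
Cldn11 (chr3:31149670-31149919, plus strand): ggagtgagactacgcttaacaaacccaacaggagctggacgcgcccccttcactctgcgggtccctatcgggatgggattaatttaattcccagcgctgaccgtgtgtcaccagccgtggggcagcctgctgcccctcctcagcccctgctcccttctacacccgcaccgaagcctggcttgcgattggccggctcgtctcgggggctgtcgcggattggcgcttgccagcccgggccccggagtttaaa
In the Mag window the match is to CTTTGT, the reverse complement of ACAAAG, 126 bases before the start. The match lies 167 bases before the start in Cnp and 219 in Enpp6, and the Cldn11 window holds neither set of letters. Over 27025 promoters of the same length, 16.46% hold ACAAAG and 28.3% hold ACAAT. Among the 16 oligodendrocyte genes past 2-fold, 11 had a promoter entry, of which 2 (Cnp and Mag) held ACAAAG and 4 (Enpp6, Nkx2-2, Sirt2 and Tmem88b) held ACAAT. These are matches of letters only, and none of the 4 windows holds both.

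Structural proteins of myelin stood low in both cKO libraries. Mbp, which encodes myelin basic protein, was at 121 FPKM in the wild-type and 11.6 FPKM in the cKO basal library, and at 161 and 12.9 FPKM in the KCl libraries. The basal difference was 10.4-fold (95% interval 9.79 to 11.0), and the genotypes did not overlap. Mag, the myelin-associated glycoprotein of the axon-facing membrane, stood at 7.29 and 0.355 FPKM at basal KCl and at 10.2 and 0.512 FPKM after KCl, 20.5-fold lower at basal KCl (12.7 to 33.8). Cldn11, the tight-junction claudin of myelin, stood at 16.501 and 2.222 FPKM, and at 23.3 and 3.55 FPKM after KCl. Its 7.43-fold basal difference and the Mag and Mbp differences all had the same direction in the KCl pair.

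Enzymes and channels of myelinating cells were lower by smaller amounts at basal KCl. Cnp, a cyclic nucleotide phosphodiesterase found in uncompacted myelin, stood at 80.0 FPKM in wild type and 28.9 FPKM in cKO, and at 76.7 and 25.4 FPKM after KCl, which was 2.77-fold lower at basal KCl. Ugt8a makes the myelin lipid galactosylceramide, and its level was 15.9 against 6.08 FPKM. Fa2h, which hydroxylates the fatty acids of such lipids, was at 3.68 against 0.685 FPKM. After KCl the difference of Fa2h was larger, at 4.99 against 0.202 FPKM. Gjc3, a connexin of myelinating glia, was at 6.69 against 1.73 FPKM, and the deacetylase gene Sirt2 at 109 against 52.2 FPKM. Each of these 5 genes was low in both cKO libraries.

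Not every gene of the myelin list was low. Mog, a glycoprotein of the outer myelin surface and a late marker, stood at 4.72 FPKM in wild type and 3.96 FPKM in cKO at basal KCl, a 1.19-fold difference whose counting interval of 0.948 to 1.49 includes 1. Trf (transferrin, iron transport) was higher in cKO at 14.02 against 8.94 FPKM, as were the actin-severing protein gene Gsn at 18.5 against 11.6 FPKM and Evi2a at 9.10 against 4.74 FPKM. Of 31 genes on the list, 21 were described. Of these 9 were 2-fold or more lower and none higher, 17 were below 0, and the median log2 ratio was -0.35. Another 8 genes, among them the mature markers Mobp, Opalin, Mal and Aspa, stayed below 1 FPKM in every library. The summed level of the described genes was 538 FPKM in the wild-type and 281 FPKM in the cKO basal library.

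Genes of differentiating oligodendrocytes were low as well. Enpp6, a choline phosphodiesterase gene that marks newly forming oligodendrocytes, stood at 11.7 and 0.653 FPKM at basal KCl and at 12.5 and 0.790 FPKM after KCl. It was 18.0-fold lower in the cKO basal library (95% interval 14.1 to 23.2). Bcas1, another gene of early myelinating cells, was at 60.7 and 11.7 FPKM at basal KCl and at 27.5 and 5.94 FPKM after KCl, 5.18-fold lower in cKO (4.79 to 5.61). The gene listed as Gm98, which RefSeq gives as a synonym of Myrf, encodes the transcription factor that drives myelin gene expression. It stood at 7.86 FPKM in wild type and 0.999 FPKM in cKO, and at 7.58 and 0.700 FPKM after KCl. Wild-type and cKO levels did not overlap for any of these 3 genes, and the wild-type level of Bcas1 was itself lower after KCl.

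Regulators and signalling genes at the step out of the progenitor state were lower too. Nkx2-2, a transcription factor of that step, was at 8.62 against 2.91 FPKM at basal KCl. Bmp4, a secreted ligand expressed by committed progenitors, was at 5.58 against 0.776 FPKM, and at 2.80 against 0.877 FPKM after KCl. Gpr17, a receptor of committed progenitors, was at 73.6 against 35.9 FPKM, and Itpr2, an intracellular calcium channel of the same stage, at 5.38 against 2.02 FPKM. In the KCl pair Gpr17 stood at 38.8 and 10.8 FPKM, a 3.61-fold difference against 2.05-fold at basal KCl. Whether the genotype difference of Gpr17 depends on KCl was not tested.

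Markers of the whole lineage and of its progenitors were close in level. Olig2, a transcription factor needed for the lineage, stood at 69.5 FPKM in wild type and 62.7 FPKM in cKO, and its relative Olig1 at 192 and 225 FPKM. Pdgfra, the growth factor receptor of oligodendrocyte progenitors, was at 30.3 and 29.0 FPKM at basal KCl and at 38.8 and 25.8 FPKM after KCl. Cspg4 (NG2), which pericytes also express, was at 6.59 and 9.34 FPKM. Sox10, a factor of the whole lineage, was lower in cKO, at 24.3 against 37.4 FPKM, a 1.54-fold difference (95% interval 1.44 to 1.64), and at 22.1 against 43.0 FPKM after KCl. Within the lists of this lineage the basal ratios of the genes given here thus ran from 20.5-fold lower for Mag to 1.92-fold higher for Evi2a. Of the 19 described genes on the progenitor and lineage list 7 were 2-fold or more lower, none higher, and the median log2 ratio was -0.60. Their summed level was 613 FPKM in wild type and 489 FPKM in cKO.

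**Figure D2:**
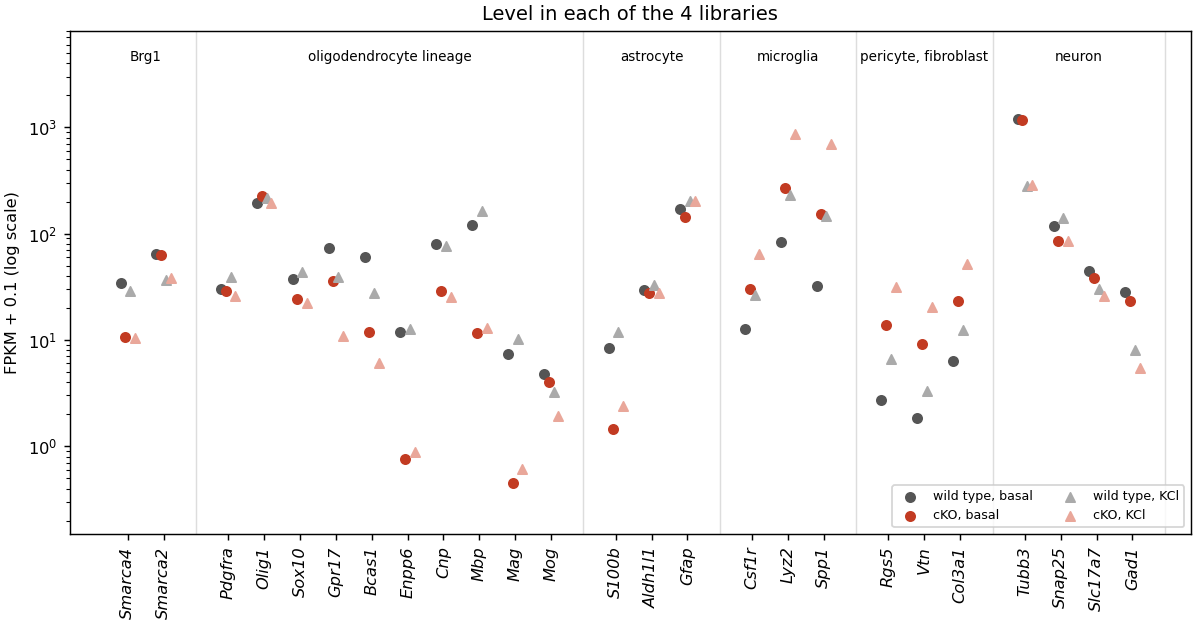
Level of selected genes in each of the 4 libraries, as FPKM + 0.1 on a log scale, with 1 point per library (circles for basal, triangles for KCl, grey for wild type and red for cKO). Mbp, Mag, Enpp6 and Bcas1 lie lower in both cKO libraries, Csf1r, Lyz2, Spp1, Rgs5, Vtn and Col3a1 higher, and Olig1 and Tubb3 close together within each condition.

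Genes of the lower set outside these lists were few. Adamts4, a secreted protease gene that cleaves proteoglycans, stood at 3.49 FPKM in wild type and 0.742 FPKM in cKO at basal KCl, and Gpr37l1, an orphan receptor of glia, at 3.72 and 1.36 FPKM. Chn2, a Rac GTPase-activating protein gene, was at 28.4 and 12.1 FPKM, and the focal adhesion gene Parvb at 13.1 and 3.77 FPKM. All 4 had the same direction in the KCl pair. The others on no list were Tmem90b, Nt5dc3, Rnf122 and Rpl34-ps1. Rpl34-ps1, listed at 2.98 FPKM for wild type at basal KCl and at 0 in the other 3 libraries, was the only gene of the 27 that was not also below 0 in the KCl pair.

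Astrocyte genes were mostly slightly lower in cKO, and S100b had the largest difference among them. S100b, a calcium-binding protein gene of astrocytes that oligodendrocyte cells also express, stood at 8.34 FPKM in the wild-type and 1.34 FPKM in the cKO basal library, and at 11.8 and 2.29 FPKM after KCl. It was 6.24-fold lower in cKO at basal KCl (95% interval 4.49 to 8.79). Ntsr2, a neurotensin receptor gene of astrocytes, was at 5.94 against 2.03 FPKM. These 2 of 26 described genes passed 2-fold and none was higher. Gfap, the intermediate filament of astrocytes, stood at 168 and 145 FPKM, the glutamate transporter gene Slc1a3 at 194 and 185 FPKM, and Aldh1l1, a folate enzyme gene, at 29.1 and 27.6 FPKM. The water channel gene Aqp4 was lower at 47.6 against 76.9 FPKM and the connexin gene Gja1 at 37.0 against 55.7 FPKM, both short of 2-fold. The list had 19 members below 0 and a median log2 ratio of -0.23, yet its summed level was higher in cKO, at 3114 against 2818 FPKM. Apoe, the most abundant member and also a microglial gene, stood at 1723 FPKM in cKO and 1260 FPKM in wild type.

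Microglia and macrophage genes were higher in cKO as a block. All 33 described members had a log2 ratio above 0, 12 were 2-fold or more higher and none lower, and the median was 0.94 beside 0.01 over all genes. Their summed level was 612 FPKM in the wild-type and 1439 FPKM in the cKO basal library, and 1048 and 3043 FPKM in the KCl libraries. Over the 28 members that reached 5 FPKM, the plain ratio of cKO to wild type ran from 1.72 to 4.75 with a median of 2.10. All 12 were also 2-fold or more higher in the KCl pair, where 23 members were.

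The values of single members follow. Csf1r, the growth factor receptor that microglia need to survive, stood at 12.5 FPKM in wild type and 29.7 FPKM in cKO at basal KCl, and at 26.1 and 63.6 FPKM after KCl. The basal ratio was 2.39-fold (95% interval 2.23 to 2.55), and both cKO libraries lay above both wild-type libraries. Fcer1g, an adaptor of Fc receptors, stood at 15.1 and 36.5 FPKM, and Itgam (CD11b) at 4.49 and 11.5 FPKM. Cx3cr1, the fractalkine receptor of microglia, was at 15.8 and 30.9 FPKM, and the complement gene C1qa at 32.1 and 66.6 FPKM. Tmem119 and P2ry12, which mark microglia resident in brain, were low in every library, at 0.779 and 1.99 FPKM and at 1.19 and 2.25 FPKM at basal KCl. Mrc1, a marker of macrophages at the brain's borders, stood at 1.73 and 1.87 FPKM.

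The members with the largest log2 ratios were Spp1, Cd14 and Lyz2. Spp1 (osteopontin) stood at 32.0 FPKM in wild type and 152 FPKM in cKO at basal KCl, and at 145 and 699 FPKM after KCl. That made it the gene with the highest log2 ratio among named protein-coding genes at 5 FPKM or more, 4.75-fold higher (95% interval 4.44 to 5.08). Lyz2, the macrophage lysozyme, stood at 84.0 and 266.5 FPKM, and at 232.5 and 865 FPKM after KCl. Cd14, the co-receptor for bacterial lipopolysaccharide, stood at 9.14 and 32.4 FPKM, a 3.55-fold difference. The cKO library was the higher of each pair for all 3 genes, and the wild-type KCl level of Spp1 was close to its cKO basal level.

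Some of the 77 higher genes that no list held are known from leukocytes, and they are named here because they passed 2-fold. Irf8, a transcription factor of myeloid cells, was at 3.34 FPKM in wild type and 8.17 FPKM in cKO. Ncf1, a subunit of the phagocyte oxidase, was at 3.70 and 11.4 FPKM, the endolysosomal nuclease gene Pld4 at 4.56 and 13.5 FPKM, and Tlr2, a receptor for bacterial lipopeptides, at 1.79 and 5.08 FPKM. Adam8, a metalloprotease gene of leukocytes, stood at 3.33 and 11.3 FPKM, and Cd72, a lectin best known from B cells, at 3.33 and 12.04 FPKM. Of the 77 higher genes 44 were on no list, all 44 were above 0 in the KCl pair, and 39 of them were 2-fold or more higher there.

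Pericyte and smooth muscle genes were higher from a low base. Rgs5, a G-protein regulator that marks pericytes, stood at 2.62 FPKM in the wild-type and 13.6 FPKM in the cKO basal library, and at 6.55 and 31.0 FPKM after KCl. It was 5.21-fold higher (95% interval 4.52 to 6.03). Vtn (vitronectin) stood at 1.75 and 9.12 FPKM, and at 3.20 and 20.4 FPKM after KCl. Acta2, smooth muscle actin, was at 2.58 and 10.9 FPKM at basal KCl and at 15.7 and 65.1 FPKM after KCl. The cKO library was the higher of each pair for all 3 genes, although for Acta2 the wild-type KCl level exceeded the cKO basal level. Pdgfrb, the receptor that recruits pericytes, was at 4.26 and 8.40 FPKM, and Notch3 at 7.61 and 6.81 FPKM. Of 14 described members 5 were 2-fold or more higher and none lower, and the median log2 ratio was 0.79. Their sum was 33.7 FPKM in wild type and 79.1 FPKM in cKO, and 5 of the 19 listed genes, with Abcc9, Des and Myh11 among them, stayed below 1 FPKM in all libraries. Kcnj8, Anpep and Foxd1 were described only because a cKO library reached 1 FPKM, so the limit favoured their direction. None of them passed 2-fold at basal KCl after 1 was added.

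Collagen and basement membrane genes followed the same direction. Col3a1, a fibrillar collagen of fibroblasts, stood at 6.25 FPKM in wild type and 23.1 FPKM in cKO, and at 12.3 and 51.7 FPKM after KCl, which was 3.70-fold higher at basal KCl. Col1a1 was at 3.85 and 11.0 FPKM, and the basement membrane collagen gene Col4a1 at 10.3 and 28.1 FPKM. Igf2, a growth factor of meninges and vessels, was at 5.16 and 16.8 FPKM, and Foxc1, a transcription factor of meningeal fibroblasts, at 0.488 and 2.76 FPKM. Outside the lists, the basement membrane genes Nid1, at 3.25 and 13.6 FPKM, and Col18a1, at 1.96 and 8.92 FPKM, were also higher. The fibroblast markers Dcn, at 2.03 and 2.01 FPKM, and Fbln1, at 2.63 and 2.54 FPKM, were not. Of 30 described members of the fibroblast and meningeal list 9 were 2-fold or more higher, none lower, and the median log2 ratio was 0.69. Their summed basal level was 259 FPKM in wild type and 404 FPKM in cKO. Col6a1, Col6a2 and Twist1 were likewise described only because a cKO library reached 1 FPKM, and none of them passed 2-fold at basal KCl.

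Most endothelial and red cell genes were near 0. Of 20 endothelial genes 14 stayed below 1 FPKM in all libraries, and 4 (Cldn5, Tie1, Sox17 and Ly6c1) were listed at 0 in both basal libraries. The cholesterol synthesis gene Hmgcs1 was also listed at 0 in all 4 libraries, and the glycolysis gene Gapdh at 0.0724 and 0.144 FPKM at basal KCl. Whether a value at or near 0 means that the RNA was absent was therefore not tested. Pecam1 stood at 0.332 and 0.216 FPKM and Cdh5 at 0.0103 and 0.0102 FPKM. None of the 6 described members passed 2-fold after 1 was added, and 2 were 2-fold or more higher in the KCl pair. Slc2a1, a glucose transporter gene that other cells also express, made up most of the summed level at 10.4 and 8.09 FPKM, and the sum was 15.1 FPKM in wild type and 14.6 FPKM in cKO. Flt1, a receptor for VEGF, was higher in cKO at 1.61 against 0.717 FPKM, Eng, a co-receptor for TGF-beta, at 1.70 against 0.570 FPKM, and Emcn, a sialomucin gene, at 0.595 against 0.0300 FPKM. Emcn was described only because the cKO KCl library reached 1 FPKM. Of 10 erythroid genes in the table only Epor was described.

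**Figure D3:**
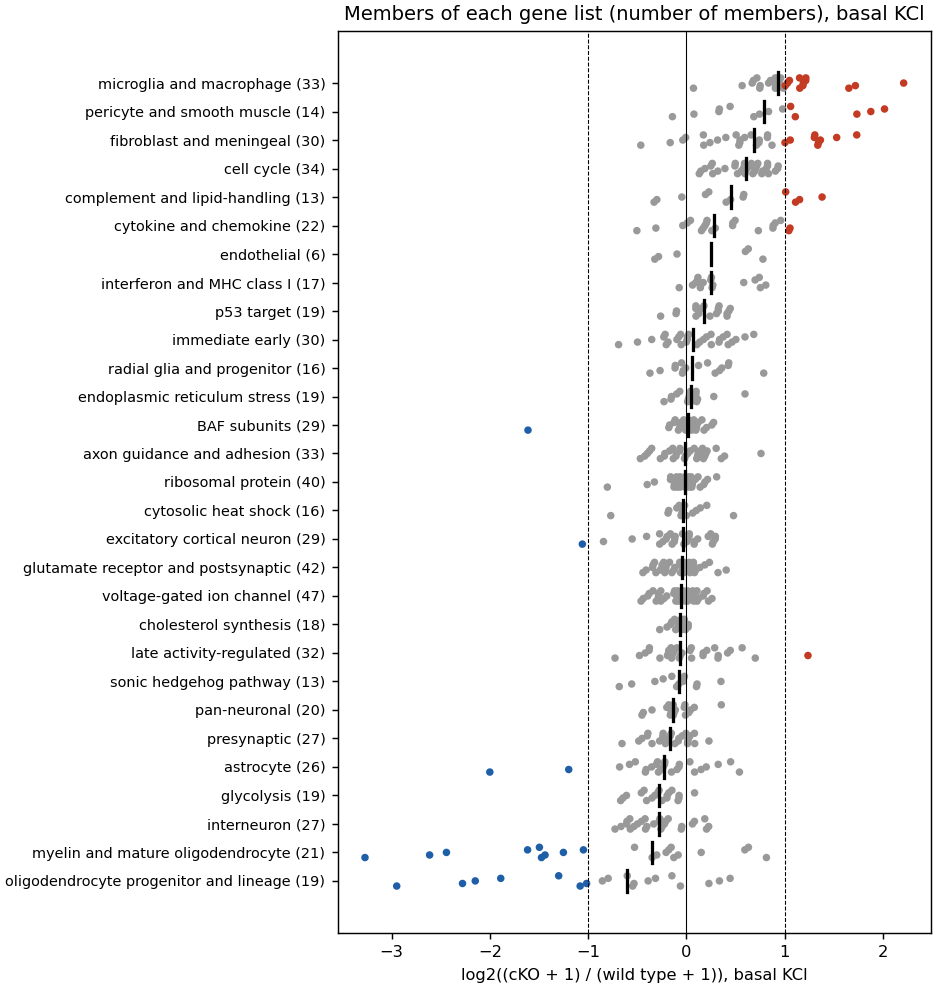
Basal log2 ratio of cKO to wild type (x axis, after adding 1 FPKM) for the members of each list with 6 or more described members, the number of members in parentheses; black bars mark medians, dashed lines 2-fold, red and blue points the members past it. Microglia, pericyte, fibroblast and cell cycle lists have the highest medians and the oligodendrocyte lists the lowest.

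Cell cycle genes were higher in cKO by smaller amounts. All 34 genes of the cell cycle list were described and all 34 had a log2 ratio above 0, with a median of 0.61, but none passed 2-fold after 1 was added. Among them, Cdkn3 reached 1 FPKM only in the cKO KCl library. Ccna2, the S and G2 phase cyclin, stood at 7.03 FPKM in wild type and 14.4 FPKM in cKO, the proliferation marker Mki67 at 5.19 and 10.05 FPKM, and the mitotic kinase gene Aurkb at 1.69 and 4.13 FPKM. The log2 ratios ran from 0.13 for the cyclin gene Ccne2, at 1.60 and 1.84 FPKM, to 0.94 for Ccna2, with the helicase subunit gene Mcm5 near the median at 4.73 and 7.66 FPKM. In the KCl pair 33 of the 34 were above 0. Radial glia and progenitor genes had no common direction: the median log2 ratio was 0.06, Vim was higher at 109.5 against 63.0 FPKM, and Sox2 was lower at 52.3 against 67.8 FPKM.

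The labelled cell type was present at high level. Tubb3, the neuronal tubulin, stood at 1187 FPKM in wild type and 1175 FPKM in cKO, and the 20 described pan-neuronal genes summed to 5839 and 5375 FPKM, above the sums of the other cell type lists. None of them passed 2-fold and the median log2 ratio was -0.13. Snap25, which acts in the fusion of synaptic vesicles, was at 118 and 85.8 FPKM, and the neurofilament gene Nefm at 32.9 and 42.4 FPKM. The summed levels of microglia, pericyte and fibroblast genes given above move with genotype in the opposite direction, and their part in the neuronal values was not tested.

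Neuron subtype and synapse genes mostly sat slightly below 0. Nrgn (neurogranin), a postsynaptic calmodulin-binding protein of excitatory neurons, was the only neuronal list member past 2-fold after 1 was added. It stood at 170.6 FPKM in wild type and 81.4 FPKM in cKO, and at 154 and 58.0 FPKM after KCl, 2.10-fold lower at basal KCl. By plain ratio some low-level genes differed more, among them Slc30a3 at 1.64 against 0.470 FPKM (3.48-fold) and Sp8 at 2.04 against 0.919 FPKM (2.22-fold). Nrgn was low in both cKO libraries. The vesicular glutamate transporter gene Slc17a7 was at 44.7 and 37.7 FPKM, and the deep-layer gene Tbr1 at 24.1 and 29.4 FPKM. The excitatory list had a median of -0.04, which turned positive under the pan-neuronal rescaling. Interneuron genes had 22 of 27 members below 0 and a median of -0.28, with the GABA-synthesis gene Gad1 at 28.4 and 23.4 FPKM and the interneuron transcription factor gene Dlx1 at 13.9 and 8.75 FPKM, while the peptide gene Sst was higher at 44.0 against 38.1 FPKM. Presynaptic genes had a median of -0.16, led by Cplx2, a regulator of vesicle fusion, at 115 and 72.9 FPKM. Glutamate receptor and postsynaptic genes had a median of -0.05, as did voltage-gated ion channel genes. No member of these 4 lists (interneuron, presynaptic, postsynaptic and ion channel) passed 2-fold after 1 was added, and the last 2 medians also turned positive under that rescaling.

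Activity-regulated genes had list medians near 0 without depolarization, while single members differed. The immediate early gene Fos stood at 2.40 FPKM in wild type and 3.69 FPKM in cKO, and at 203 and 224 FPKM after KCl. Among other immediate early genes, Nr4a2 was at 5.36 and 9.23 FPKM and Egr3 at 2.97 and 1.46 FPKM, so single members lay on both sides. By plain ratio Nr4a2 was 1.72-fold higher and Egr3 2.03-fold lower in cKO. The list of 30 described genes had no member past 2-fold at basal KCl after 1 was added, and a median of 0.07. Bdnf, a neurotrophin and late activity-regulated gene, was at 0.734 and 1.12 FPKM. Of 32 described late genes only Ctgf passed 2-fold after 1 was added, at 2.46 against 7.16 FPKM, and the list median was -0.07. Ctgf is a matricellular protein gene also expressed by vascular cells and fibroblasts. In the sonic hedgehog pathway, in which Brg1 has a known part, the target genes Gli1, at 1.46 and 0.535 FPKM, and Ptch1, at 9.49 and 7.40 FPKM, were lower and the effector Gli3 higher at 3.34 against 2.40 FPKM. None of its 13 described genes passed 2-fold after 1 was added.

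The KCl pair, which shares no library with the basal pair, gave the same direction for nearly all of these protein-coding genes. All 77 higher genes were above 0 there and 67 were 2-fold or more higher, which is 87.0% of the basal set and 33.8% of the 198 genes higher after KCl. Of the 27 lower genes 26 were below 0 and 22 were 2-fold or more lower, which is 81.5% of the basal set and 36.1% of the 61 genes lower after KCl. The median log2 ratio of the higher genes was 1.19 at basal KCl and 1.35 after KCl, and that of the lower genes -1.47 and -1.45. Over all 12785 genes the KCl pair had 235 genes (1.84%) higher and 119 (0.931%) lower. Whether the cultures of the pairs shared embryos or a preparation is not given in the labels, so the pairs are not known to be independent.

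**Figure D4:**
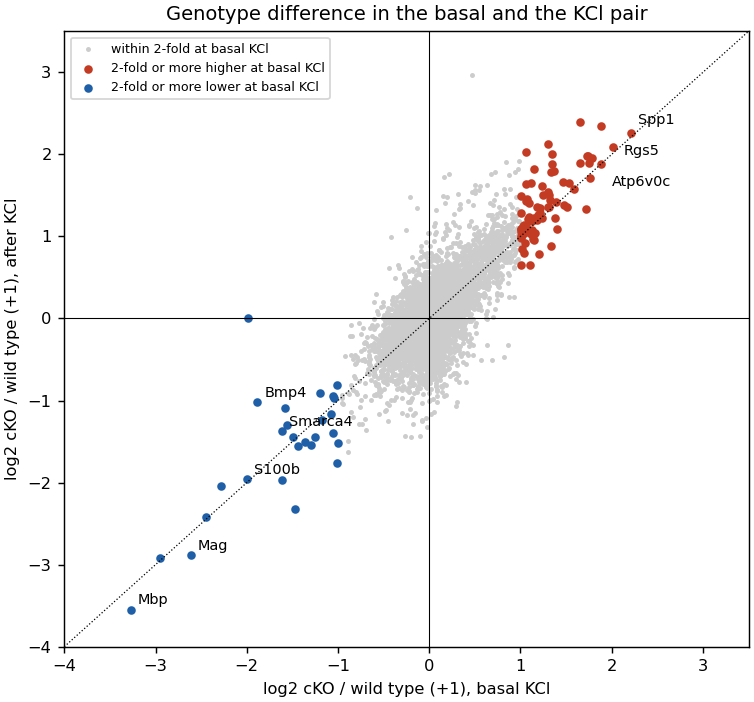
Log2 ratio of cKO to wild type (after adding 1 FPKM) at basal KCl (x axis) and after KCl (y axis) for named protein-coding genes; red and blue points are the 77 genes higher and the 27 lower by 2-fold or more at basal KCl, and the dotted line marks equal ratios. All red points lie above 0 in the KCl pair, and the blue points, except Rpl34-ps1, lie below.

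A gene on none of the lists stood out for its constancy. Atp6v0c, which encodes the proton channel subunit of the vacuolar ATPase, was at 3.76 FPKM in wild type and 16.6 FPKM in cKO at basal KCl, and at 3.80 and 16.7 FPKM after KCl. Levels therefore differed between the wild-type and cKO libraries, 4.42-fold at basal KCl (95% interval 3.79 to 5.16), and hardly by KCl. Whether mapping or counting of its fragments differed between these libraries was not tested. Eif3j, a translation initiation factor gene, was at 0.0612 and 1.93 FPKM at basal KCl and at 0.0389 and 2.28 FPKM after KCl. Its wild-type values lay near 0, so the size of its ratio is imprecise. Atp6v0c and Eif3j were picked out after their values were seen.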

How the data were processed

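RNA-seq was done on 4 libraries, 1 for each genotype and KCl condition. The authors deposited 1 table of 22552 genes, and its unit was read from the values as FPKM, since the labels do not name it. Per the submitters' processing notes, TopHat 1.3.2 and the mm9 genome were used. How gene values were computed, with which annotation, strand setting and filters, is not given in the sources used here.

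Autosomal genes that reached 1 FPKM in any library were described, 86 of them with no chromosome. Some reached it in the libraries of 1 genotype only, which favours the direction of that genotype in list counts and medians. RefSeq GRCm38.p6 and GENCODE M21 differ from mm9 and served for names, chromosome, type, length and order only (291 table names did not match). The log2 ratio is of cKO + 1 to wild type + 1, which understates differences of low genes, and printed folds are plain ratios of the deposited values. With 1 library per group no test was run, and genes were counted at 2-fold. Depth was approximated from the steps between low FPKM values of transcripts of 2000 bases or more. The 95% intervals are exact binomial (Clopper-Pearson) on those fragments, conditional on their sum; reads without molecular identifiers are not independent molecules, so they cover counting error only.

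The comparison, the 30 gene lists and the naming rule were chosen with earlier results of these data known. The rule named Smarca4, Mbp, Mag, S100b, Csf1r and Rgs5, the 15 highest and 15 lowest log2 ratios among named protein-coding genes whose higher basal level was at least 5 FPKM, the 4 or fewer members of a list farthest from 0, and a set of marker genes, 145 genes in all. Other genes were named after their values were seen. Alternatives were other pseudocounts, filters, scalings, gene sets and fold sizes. The software was Python 3.11.15, NumPy 2.4.6, pandas 2.3.3, SciPy 1.17.1 and matplotlib 3.10.9. Of the steps, only the log2 ratio and the 2-fold count were tested on simulated data. Some genes are not reported here.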

Additional observations from a re-analysis of the deposited data

Results flagged for a closer look

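For 4 of the 145 genes of the naming rule, and for Tbr1, which was named outside it, the cKO library was the higher one at basal KCl and the lower one after KCl, by at least 0.25 on the log2 scale in each pair. Other genes outside the rule were not searched, and some meet the same limit, such as the immediate early gene Junb at 0.43 and -0.45. Bdnf had a log2 ratio of 0.29 at basal KCl and -1.06 after KCl, a difference of -1.35. Nr4a2 had 0.69 and -0.51, a difference of -1.19. Nrn1, a neuritin gene induced by activity, had 0.57 and -0.51, a difference of -1.07. Emx2, a homeobox gene of cortical progenitors, had 0.43 and -0.27, differing by -0.71. Tbr1, a transcription factor gene of deep-layer neurons, had 0.27 and -0.41, differing by -0.68. With 1 library per group these differences were not tested.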

How the results depend on the processing

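Main counts at 2-fold were 116 higher and 70 lower. They became 360 and 127 with a pseudocount of 0.1, 25 and 17 with a pseudocount of 5, 76 and 35 among genes at 5 FPKM or more in a basal library, 77 and 27 among named protein-coding genes, 500 and 186 at 1.5-fold, and 29 and 16 at 3-fold. With X- and Y-linked genes kept they were 124 and 73. By list, with pseudocounts of 0.1 and 5, the higher members numbered 21 and 6 for microglia (12 in the main count), 8 and 3 for pericyte and smooth muscle (5), and 16 and 4 for fibroblast genes (9). A pseudocount of 5 left 3 lower members of the oligodendrocyte lineage list (7) and 4 of the myelin list (9). Cell cycle genes had no higher member in the main count, 5 with a pseudocount of 0.1 and 3 under the pan-neuronal rescaling, under which microglia had 24. Median log2 ratios of 0.1 or more in size turned sign for endothelial genes at 5 FPKM or more (-0.32 against 0.25). Only 1 endothelial gene, Slc2a1, reached that level, so -0.32 is its own ratio. The pan-neuronal median also turned sign under its own rescaling (1.55e-05 against -0.13, by construction). Smaller medians turned positive under that rescaling for the excitatory, postsynaptic, ion channel, sonic hedgehog, cholesterol synthesis, heat shock, ribosomal protein and axon guidance lists, and for axon guidance also under the upper-quartile and ribosomal rescalings. Of 1418 log2 ratios recomputed for named genes, 143 moved by more than their counting error, and none of a gene past 2-fold changed sign. No filter on low values gave the main counts by construction, leaving out a library was not possible with 1 library per group, and depth limits ratios of genes near 1 FPKM most. No paired analysis was possible because the labels give no replicate numbers that pair libraries; an additive fit of genotype and KCl over the 4 libraries was not run.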

Other observations

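Several groups not covered above also lay to one side at basal KCl. In glycolysis, 18 of 19 described genes were below 0 with a median log2 ratio of -0.28, none past 2-fold. The glucose-6-phosphate isomerase gene Gpi1 stood at 63.9 FPKM in wild type and 40.5 FPKM in cKO, and the lactate dehydrogenase gene Ldha at 170 and 126 FPKM. Interferon and MHC class I genes had 16 of 17 described members above 0 and a median of 0.25. Among them, Isg15 reached 1 FPKM only in the cKO KCl library. B2m, the light chain of MHC class I, stood at 45.6 and 80.6 FPKM, and the membrane restriction factor gene Ifitm3 at 3.74 and 6.70 FPKM, while the heavy chain gene H2-K1 was nearly level at 15.5 and 16.2 FPKM. Of p53 target genes 16 of 19 were above 0 with a median of 0.18, the cell cycle inhibitor gene Cdkn1a standing at 18.1 and 25.1 FPKM.

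Complement and lipid-handling genes had a median of 0.45, and 4 of 13 described members passed 2-fold, all higher in cKO, among them Apod, an apolipoprotein gene, at 0.746 and 3.55 FPKM, Ch25h, a cholesterol hydroxylase gene, at 1.802 and 5.23 FPKM, and Fabp4, a fatty acid carrier gene, at 0.439 and 2.11 FPKM. Among cytokine and chemokine genes Cxcl12, at 5.81 and 13.0 FPKM, and Cxcl16, at 2.74 and 6.78 FPKM, passed 2-fold after 1 was added. Cholesterol synthesis genes were almost level, with a median of -0.06 and ratios from -0.27 to 0.02. Ribosomal protein genes had a median of -0.01 but a wider range, from -0.80 to 0.31, with 17 members above 0 and 23 below. The lowest was Rpl30, at 27.9 FPKM in wild type and 15.6 FPKM in cKO. Both of these medians turned positive under the pan-neuronal rescaling. The microglia, pericyte and fibroblast sums given earlier were higher in the same cKO library, and their part in these values was not tested.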
